A study of Mus musculus with 6 samples.

Results

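The genes of DNA replication and nucleotide synthesis were followed in N18-Fms cells before and after stimulation with CSF-1. The list holds 39 genes out of 36163 named on the arrays, chosen for their known role but with earlier results of these data known. Every one of the 39 had a probe, and 37 passed the filter on dim and flagged spots and were tested among 24648 genes. N18-Fms cells are mouse prostate cancer cells, a luciferase-expressing subclone of the C2H line from a tumor of the TRAMP transgenic mouse, transduced with a retroviral c-fms cDNA (the gene of the CSF-1 receptor, labelled CFMS) and sorted for the receptor. They secrete CSF-1 themselves, so the unstimulated cells were not free of ligand, and they were grown with serum and dihydrotestosterone. There were 3 groups of 2 arrays: unstimulated cells (vehicle), cells given 100 ng/mL CSF-1 for 24 h and cells given the same dose for 48 h. The times are those of the labels, and the methods of the study give shorter ones. The receptor gene Csf1r lay between 4.88 and 5.34 on every array and passed no test (adjusted p = 0.367 and 0.793, limma). All of these levels are log2 of the spot signal minus log2 of the 75th percentile of the array, so that 0 is the 75th percentile.

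DNA replication starts when the origin recognition complex, Cdc6 and Cdt1 load the MCM helicase on DNA in G1. The helicase is activated as S phase begins, and primase and the polymerases then copy both strands, held to DNA by the PCNA clamp that replication factor C loads. Deoxynucleotides come from ribonucleotide reductase and from thymidine synthesis and salvage. Most of these genes are transcribed around the G1 to S transition by E2F factors and are repressed by pocket proteins in cells that leave the cycle, so their RNA is low in resting cells and high in cycling ones.

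The promoter sequences are shown first because E2F-type motifs are a feature that many members share and that the choice of the list did not use. RefSeq windows from 250 bases before to 50 bases after the start of the gene were held for 32 of the 39 genes, while Ccne2, Gins1, Gins2, Mcm4, Pole, Prim2 and Rfc2 had none. The words TTTCGCGC, TTTGGCGC, TTTCCCGC and TTTGCCGC were searched on both strands, and a site read on both strands can overlap itself. A gene with several starts has several windows (37 for the 32 members) and was counted once if any held a word. The words were found for 11 of the 32 members (34.4%) and for 2.6% of 27025 genes with a window. The 11 were Cdc6, Cdt1, Lig1, Mcm3, Mcm5, Mcm6, Mcm7, Pola1, Pold1, Rfc3 and Uhrf1. CCAAT, on either strand, was found for 19 of the 32 members (59.4%) and for 41.1% of all genes with a window. Capitals mark both kinds of motif in the 200 bases before the start of each gene, 5′ to 3′ on the strand of the gene. Mcm5, Mcm6, Pola1 and Rfc3 are shown as members with an E2F-type word, and Tk1 and Rfc5 as the members with the largest decreases at 24 h and 48 h, whose windows held neither motif.
Mcm5 (GRCm38.p6 chr8:75109309-75109508, plus strand): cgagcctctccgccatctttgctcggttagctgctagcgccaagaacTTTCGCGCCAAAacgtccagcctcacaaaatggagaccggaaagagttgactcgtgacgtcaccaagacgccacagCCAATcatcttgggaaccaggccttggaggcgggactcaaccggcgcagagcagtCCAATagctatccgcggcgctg
Mcm6 (GRCm38.p6 chr1:128359706-128359905, minus strand): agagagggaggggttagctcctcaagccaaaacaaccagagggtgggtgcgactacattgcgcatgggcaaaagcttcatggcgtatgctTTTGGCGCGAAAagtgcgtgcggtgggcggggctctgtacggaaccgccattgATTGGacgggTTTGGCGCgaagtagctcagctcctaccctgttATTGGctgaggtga
Pola1 (GRCm38.p6 chrX:93632156-93632355, minus strand): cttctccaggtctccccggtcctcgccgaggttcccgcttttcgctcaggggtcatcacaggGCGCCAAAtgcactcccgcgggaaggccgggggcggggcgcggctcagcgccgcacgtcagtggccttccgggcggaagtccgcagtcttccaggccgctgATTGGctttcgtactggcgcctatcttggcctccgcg
Rfc3 (GRCm38.p6 chr5:151651209-151651408, minus strand): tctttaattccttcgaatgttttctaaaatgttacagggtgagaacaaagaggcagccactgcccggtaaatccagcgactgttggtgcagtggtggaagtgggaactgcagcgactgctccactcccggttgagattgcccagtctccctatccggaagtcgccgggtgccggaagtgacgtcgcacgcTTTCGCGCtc
Tk1 (GRCm38.p6 chr11:117826015-117826214, minus strand): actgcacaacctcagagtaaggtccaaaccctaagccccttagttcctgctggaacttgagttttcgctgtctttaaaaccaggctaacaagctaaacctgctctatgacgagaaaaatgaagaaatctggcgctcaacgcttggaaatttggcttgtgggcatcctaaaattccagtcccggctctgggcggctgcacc
Rfc5 (GRCm38.p6 chr5:117389024-117389223, minus strand): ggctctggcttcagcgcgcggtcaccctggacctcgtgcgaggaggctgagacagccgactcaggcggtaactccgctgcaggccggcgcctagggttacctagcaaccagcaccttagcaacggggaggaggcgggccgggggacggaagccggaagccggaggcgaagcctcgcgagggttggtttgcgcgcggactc
In Mcm5 the words TTTCGCGC (from -153 to -146) and GCGCCAAA (from -149 to -142) overlap in 1 site, and in Mcm6 there is such a double site from -110 to -99 and a single word from -47 to -40. A match is a description of letters and not a binding site. The 11 members with an E2F-type word changed by medians of -0.47 (24 h) and -0.49 (48 h) on the log2 scale after CSF-1. The 20 tested members whose window held no such word had medians of -0.46 and -0.42. The 6 tested members without a window had medians of -0.39 and -0.55. In limma 4 and 6 genes of the first set were lower with adjusted p under 0.05, 7 and 7 of the second, and 0 and 3 of the third. Of all genes, 5.99% and 7.38% were called lower.

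RNA of the replication and nucleotide genes was lower after CSF-1 at both times. The median log2 fold change of the 37 members was -0.44 at 24 h and -0.47 at 48 h, beside 0.04 and -0.04 for all genes tested. The fitted value was below 0 for 37 of 37 members at 24 h (45.5% of all genes tested) and for 36 of 37 at 48 h (55.2% of all genes). With both stimulated arrays below both unstimulated arrays there were 33 members at 24 h, against 27.7% of all genes. At 48 h there were 34, against 35% of all genes. With Benjamini-Hochberg adjusted p under 0.05 in limma, 11 members were lower at 24 h (5.99% of all genes) and 16 at 48 h (7.38% of all genes). None was higher at either time (0 of 37), where 8.02% of all genes were higher at 24 h and 6.58% at 48 h. At an unadjusted p under 0.05 there were 0 higher as well, in limma and in the methods' t-test. The share of all genes higher at that looser threshold is not reported here. At 24 h the genes called were Mcm2, Mcm5, Cdc6, Rfc5, Pola1, Tk1, Dut, Lig1, Rpa1, Rpa2 and Chaf1a. At 48 h they were Mcm2, Mcm3, Mcm5, Cdc6, Rfc2, Rfc3, Rfc5, Pola1, Pole, Prim1, Prim2, Rrm1, Tk1, Lig1, Rpa1 and Rpa2. The shared calls were 9 genes, 81.8% of those at 24 h and 56.2% of those at 48 h. The groups overlapped for Rfc4, Pold1, Rrm2 and Slbp at 24 h and for Mcm4, Pcna and Rfc4 at 48 h. Both comparisons use the same unstimulated arrays and are not independent.

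**Figure D1:**
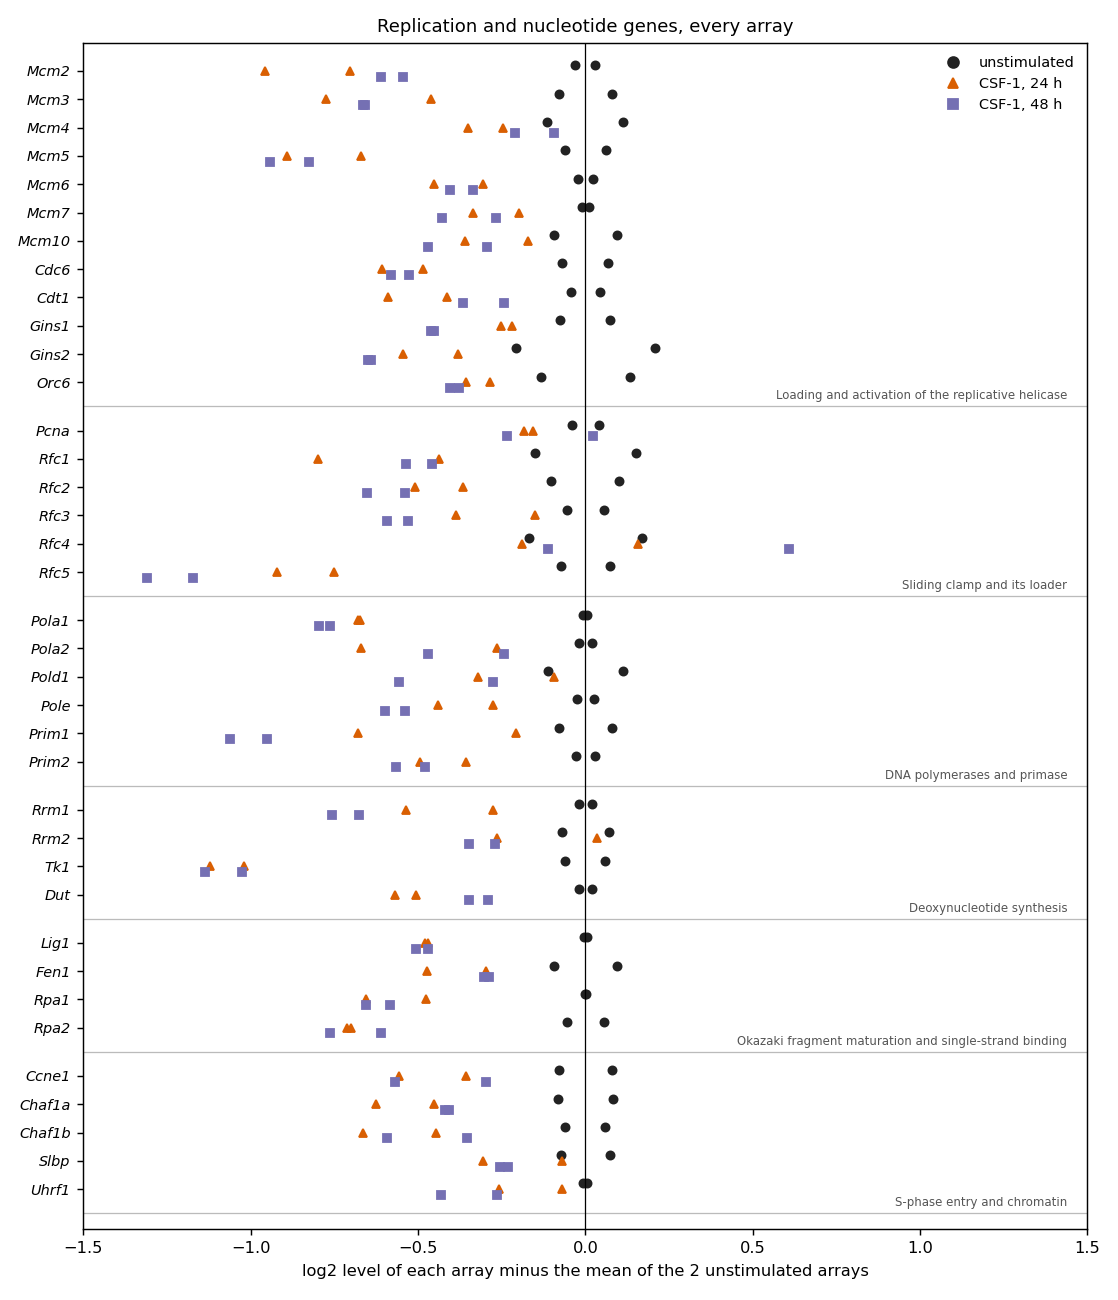
Level of each of the 37 tested members on each of the 6 arrays, as log2 level minus the mean of the 2 unstimulated arrays (x axis), with genes grouped by role (y axis). Circles are unstimulated, triangles 24 h and squares 48 h arrays. Nearly all triangles and squares lie left of the circles, with Tk1 and Rfc5 farthest left and Rfc4 the one gene with a square far to the right.

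These decreases were mostly smaller than 2-fold. At the thresholds of the study, an unadjusted p under 0.05 and a change of at least 2-fold, 1 member was lower at 24 h (Tk1, against 1.83% of all genes) and 3 at 48 h (Tk1, Rfc5 and Prim1, against 1.83% of all genes). The number of calls depended on the fit. With only the 2 groups compared, which leaves fewer degrees of freedom, 6 members were called at each time at unchanged medians. Of all genes, 3.49% and 3.91% were then called lower at 24 h and 48 h. Fewer were also called without any 1 array than with all 6. Such a fit loses a degree of freedom whichever array is left out, so the calls cannot show dependence on a particular array. The median without any 1 array stayed between -0.54 and -0.36 at 24 h and between -0.51 and -0.47 at 48 h. Tk1 at both times and Rfc5 at 48 h kept an adjusted p under 0.05 under 19 of 20 alternatives, the exception being the t-test, in which 0 of 24648 genes passed adjustment.

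**Figure D2:**
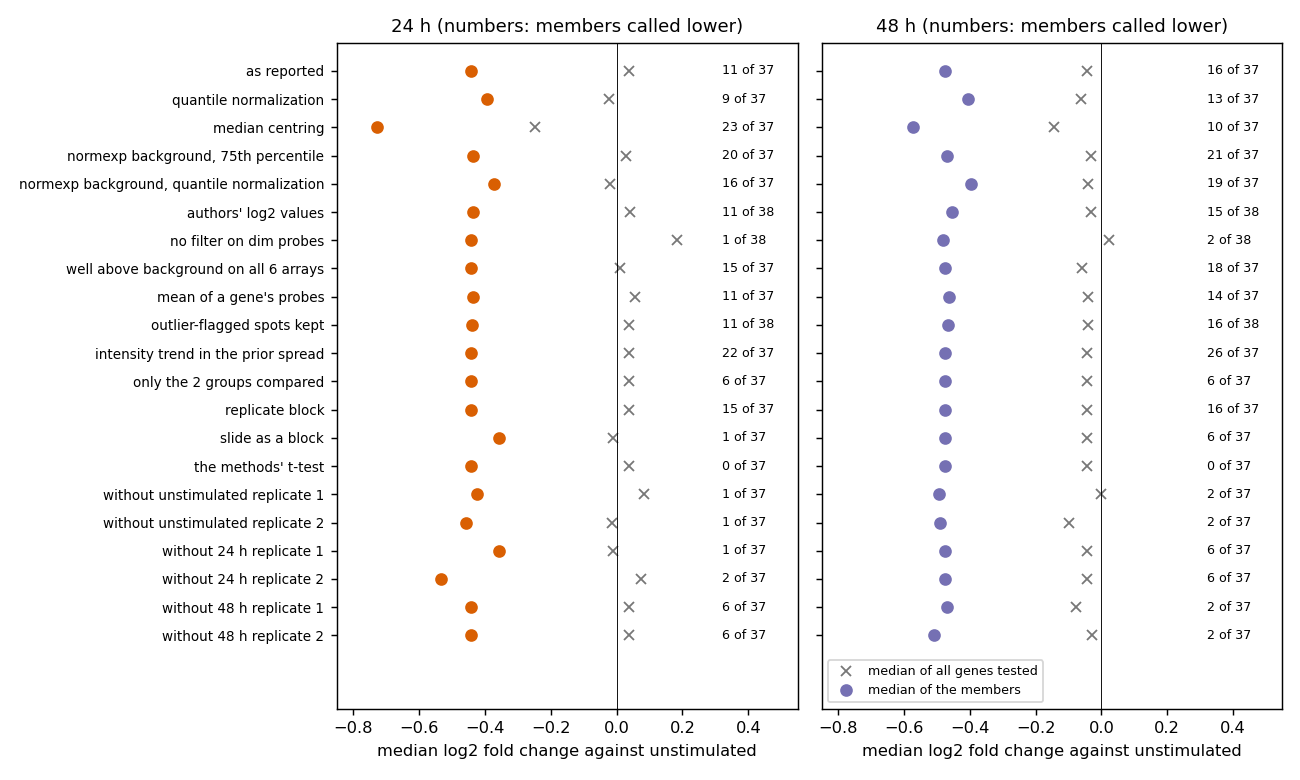
Median log2 fold change against unstimulated cells (x axis) of the members (coloured circles) and of all genes tested (grey crosses) as reported and under each of the 20 alternatives (y axis), at 24 h (left) and 48 h (right), with the number of members called lower beside each. The circles lie left of the crosses throughout, whereas the numbers called run from 0 to 23 at 24 h and from 0 to 26 at 48 h.

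The members were set against other genes of similar brightness, because fold changes varied with brightness over the whole array. The genes tested were cut by mean level into 4 bins of 6162 genes. From the dimmest to the brightest bin the median change of all genes at 24 h was 0.36, 0.08, -0.05 and -0.10, and at 48 h it was 0.09, -0.01, -0.09 and -0.16. There were 9 members in the third bin, with medians of -0.47 (24 h) and -0.52 (48 h), and 28 in the brightest, with medians of -0.42 and -0.44. Adjusted calls to the lower side were made for 9.57% and 8.28% of all genes in these bins at 24 h and for 11.1% in each at 48 h.

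**Figure D3:**
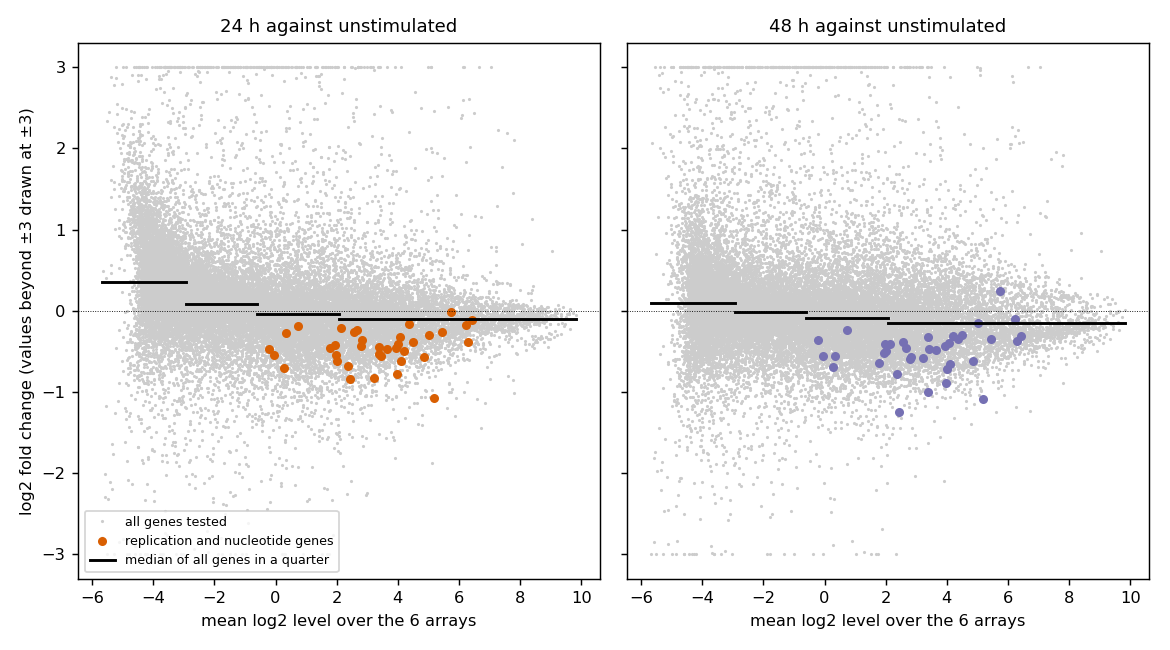
Log2 fold change against unstimulated cells (y axis, values beyond 3 in either direction drawn at 3) by mean log2 level over the 6 arrays (x axis) for 24648 genes (grey), with the 37 members in colour, at 24 h (left) and 48 h (right). Black bars are the medians of all genes in each of the 4 bins, and the members lie mostly below the bars of the 2 brighter bins.

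The genes that load and activate the helicase were lower after CSF-1, with a median of -0.42 at both times and all 12 fitted values below 0. Of the 12, 3 passed the test at 24 h and 4 at 48 h, beside 5.99% and 7.38% of all genes called lower. The MCM genes encode the ring-shaped helicase that unwinds DNA, and Mcm2 and Mcm5, 2 of its subunits, passed the test at both times. Mcm5 (NM_008566, probe at mm9 chr8:77651350-77651410) was at 4.58 and 4.45 in unstimulated cells, 3.62 and 3.84 at 24 h, and 3.69 and 3.57 at 48 h. All stimulated arrays were thus below both unstimulated ones, with log2 fold changes of -0.78 (SE 0.13, adjusted p = 0.0216, limma) and -0.88 (SE 0.13, adjusted p = 0.0167, limma). Mcm2 was at 3.66 and 3.72, then 2.73 and 2.99 at 24 h, and 3.08 and 3.14 at 48 h. Its decrease was -0.83 at 24 h (SE 0.13, adjusted p = 0.0181, limma) and -0.58 at 48 h (adjusted p = 0.0444), and the difference between the times was 0.25, with a 95% interval from -0.07 to 0.58. Mcm3 was lower by -0.62 at 24 h, just short of the threshold (adjusted p = 0.0507, limma), and passed at 48 h with -0.66. The other helicase subunits had smaller values: Mcm4 -0.30 and -0.15, Mcm6 -0.38 and -0.37, and Mcm7 -0.27 and -0.35, and none of the 3 passed at either time.

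Of the 6 loaders and activators of the helicase, 1 passed the test, beside 5.99% (24 h) and 7.38% (48 h) of all genes called lower. Cdc6, the ATPase that brings the helicase to origins, passed the test at both times with -0.55 at each, from 0.25 and 0.39 in unstimulated cells to -0.29 and -0.17 at 24 h and -0.21 and -0.26 at 48 h. A second Cdc6 probe, farther along the gene, differed: it gave -0.17 at 24 h and 0.14 at 48 h, neither called. Cdt1, which works with Cdc6, was at -0.50 at 24 h (adjusted p = 0.0538, limma) and -0.31 at 48 h. Gins1 and Gins2, parts of the complex that activates the helicase with Cdc45, were at -0.24 and -0.46 at 24 h and -0.46 and -0.64 at 48 h. Mcm10, which helps to start the fork, and Orc6, the smallest origin recognition subunit, had values of -0.27 and -0.32 at 24 h and -0.38 and -0.39 at 48 h. None of these 5 passed the test at either time.

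Of the 6 genes of the clamp and its loader, 1 passed the test at 24 h and 3 at 48 h, with medians of -0.35 and -0.53. Of all genes, 5.99% and 7.38% were called lower. Rfc5 (NM_028128, probe at mm9 chr5:117829243-117829302), a small subunit of replication factor C, had the largest decrease of the tested members at 48 h. It stood at 3.19 and 3.05 in unstimulated cells, 2.20 and 2.37 at 24 h, and 1.95 and 1.81 at 48 h. The 3 groups did not overlap. Rfc5 fell to 56.1% of the unstimulated level at 24 h (log2 -0.84, SE 0.13, adjusted p = 0.0176, limma) and to 42.3% at 48 h (log2 -1.24, SE 0.13, adjusted p = 0.00631, limma). Rfc2 and Rfc3, also small subunits, passed at 48 h with -0.60 and -0.56, and Rfc1, the large subunit, was at -0.62 and -0.50 without passing. Pcna, the clamp itself, was at 6.35 and 6.27 unstimulated, 6.15 and 6.13 at 24 h, and 6.08 and 6.33 at 48 h, so that 1 of the 48 h arrays lay among the unstimulated ones. Its log2 fold changes of -0.17 (95% interval from -0.50 to 0.16) and -0.11 (from -0.43 to 0.22) have intervals that include the values of Mcm4 and not those of Rfc5.

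Rfc4, another small subunit of the loader, depended on the probe. The brighter probe, which stood for the gene, was at 5.81 and 5.48 in unstimulated cells, 5.46 and 5.80 at 24 h, and 5.53 and 6.25 at 48 h. These groups overlap, and its log2 fold changes were -0.02 and 0.25 with a SE of 0.28. It was the only tested member above 0 at 48 h. The other probe was at 0.87 and 0.59, then 0.06 and 0.16, then -0.06 and -0.31. Its groups did not overlap, and its values were -0.61 at 24 h and -0.91 at 48 h. Tested among 34814 probes, the adjusted p was 0.0639 and 0.0268 (limma). The probes lie at mm9 chr16:23114024-23114083 and chr16:23120982-23121041. The sequence of the second is shown because it identifies what was measured: its 24 bases in capitals encode the ATP-binding loop shared by the loader subunits.
Rfc4 probe: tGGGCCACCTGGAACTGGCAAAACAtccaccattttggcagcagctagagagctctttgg
Across the 9 members with several probes there were 10 further probes, of which 10 were below 0 at 24 h and 9 at 48 h, the exception being that of Cdc6. Which Rfc4 probe follows the transcript more closely was not tested.

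Primase and the polymerases had medians of -0.43 and -0.55. Of the 6 genes, 1 passed at 24 h and 4 at 48 h, beside 5.99% and 7.38% of all genes called lower. Pola1 (NM_008892), the catalytic subunit of the polymerase that extends primers, passed at both times, and its replicate arrays lay close together: 2.87 and 2.85 unstimulated, 2.19 and 2.18 at 24 h, and 2.06 and 2.10 at 48 h. The groups were far apart relative to their spread, with log2 fold changes of -0.68 (SE 0.10, adjusted p = 0.016, limma) and -0.78 (SE 0.10, adjusted p = 0.0115, limma). Prim1, the catalytic subunit of primase, was at 3.95 and 3.79, then 3.19 and 3.66, then 2.81 and 2.92. Its 24 h arrays were uneven and gave -0.44 (adjusted p = 0.177, limma), while at 48 h it fell to 49.8% of the unstimulated level (adjusted p = 0.0277). Prim2, its partner, and Pole, the catalytic subunit of the leading-strand polymerase, passed at 48 h with -0.52 and -0.57 and were at -0.43 and -0.36 at 24 h. Pola2, which tethers primase to the polymerase, was at -0.47 and -0.36, and Pold1, the catalytic subunit of the lagging-strand polymerase, at -0.21 and -0.42, and neither passed.

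Among the deoxynucleotide genes, 2 of 4 tested passed at each time (5.99% and 7.38% of all genes), and thymidine salvage had the largest decrease. Tk1 (NM_009387, probe at mm9 chr11:117676845-117676904) encodes the cytosolic thymidine kinase of S phase. It was at 5.95 and 5.83 in unstimulated cells, 4.77 and 4.87 at 24 h, and 4.86 and 4.75 at 48 h. The stimulated arrays were all about 1 unit below the unstimulated ones and the 2 times overlapped. Tk1 fell to 47.6% of the unstimulated level at 24 h (log2 -1.07, SE 0.12, adjusted p = 0.00743, limma) and to 47.3% at 48 h (log2 -1.08, SE 0.12, adjusted p = 0.00702, limma), with a difference between the times of -0.01 (95% interval from -0.30 to 0.28). Dut, which breaks down dUTP and so keeps uracil out of DNA, passed at 24 h with -0.54 and not at 48 h with -0.32 (adjusted p = 0.108).

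The 2 genes of ribonucleotide reductase, the enzyme that makes deoxynucleotides from ribonucleotides, gave different values. Rrm1, the large subunit, was at 4.36 and 4.40, then 3.85 and 4.11, then 3.63 and 3.71, so that no groups overlapped. It was at -0.41 at 24 h (adjusted p = 0.101, limma) and passed at 48 h with -0.72 (adjusted p = 0.0267). Rrm2, the small subunit made in S phase, was at 6.51 and 6.65, then 6.32 and 6.62, then 6.23 and 6.31. One of its 24 h arrays lay among the unstimulated ones, and its log2 fold changes were -0.11 (95% interval from -0.48 to 0.25) and -0.31 (from -0.67 to 0.05). The difference between the 2 genes was not tested. Tyms, the enzyme that makes thymidylate from dUMP, was left out of the fit because its only probe was flagged as non-uniform on the second 48 h array. Its unnormalized signals were 1510 and 1251 in unstimulated cells, 1372 and 1381 at 24 h, 1472 on the first 48 h array and 2446 on the flagged one. The flagged value was the highest, and with it kept, the changes were -0.01 and 0.47 (adjusted p = 0.988 and 0.273, limma).

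The genes that finish lagging-strand fragments and cover single-stranded DNA had medians of -0.52 and -0.55. At each time 3 of 4 passed, beside 5.99% and 7.38% of all genes called lower. Rpa2, a subunit of the single-strand binding protein RPA, was at 0.79 and 0.68, then 0.03 and 0.02, then 0.12 and -0.03, which left a clear gap to the unstimulated arrays. It changed by -0.71 and -0.69 (adjusted p = 0.0199 and 0.0223, limma), and Rpa1, the large subunit, by -0.56 and -0.62 (adjusted p = 0.0361 and 0.029). Lig1, the ligase that seals the fragments, changed by -0.47 and -0.49 (adjusted p = 0.0392 and 0.0367, limma). Fen1, the nuclease that trims them, was at -0.39 and -0.30 and did not pass.

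Of the 5 tested genes of S-phase entry and chromatin duplication, Chaf1a alone passed, at 24 h, beside 5.99% of all genes called lower. Chaf1a and Chaf1b are subunits of the chromatin assembly factor that puts histones on new DNA. They were at -0.54 (adjusted p = 0.0465, limma) and -0.55 (adjusted p = 0.0633) at 24 h, and at -0.41 and -0.47 at 48 h, where neither passed. Ccne1, cyclin E1, the partner of Cdk2 at S-phase entry, was at -0.46 and -0.43 without passing. Slbp, which binds the end of histone mRNA, was at -0.19 and -0.24, and Uhrf1, which brings the maintenance methyltransferase to new DNA, at -0.16 and -0.35, and these did not pass. Ccne2, cyclin E2, was not well above background on any of the 6 arrays, so no change was computed for it.

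**Figure D4:**
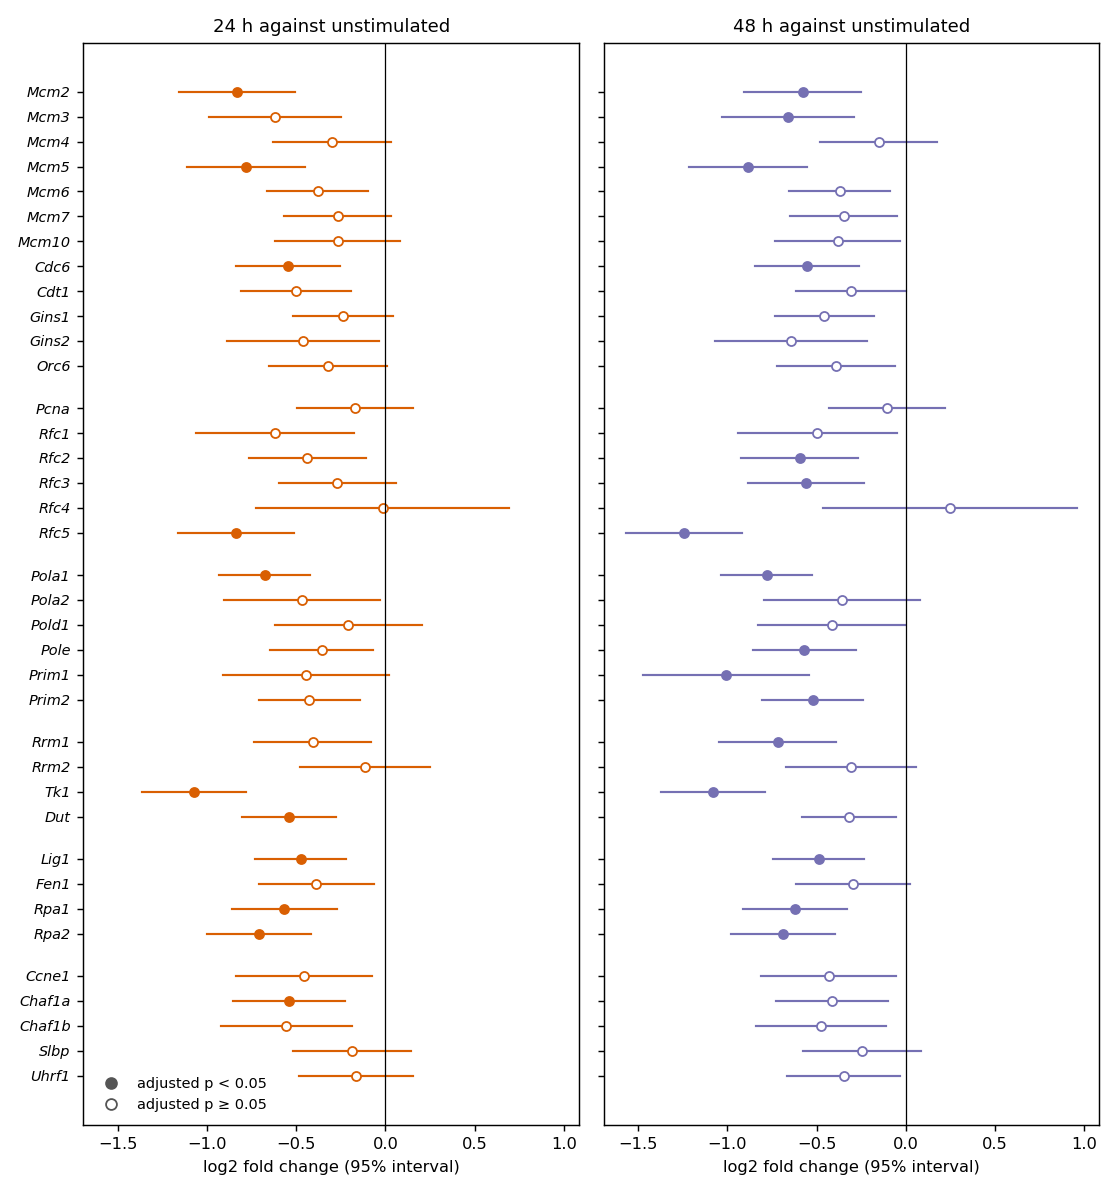
Log2 fold change against unstimulated cells (x axis) with 95% interval from limma for each of the 37 tested members (y axis, in the same order by role), at 24 h (left) and 48 h (right). Filled circles passed an adjusted p under 0.05: 11 at 24 h and 16 at 48 h, all below 0. The intervals of Rfc4 are the widest.

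Few members differed between the 2 times of stimulation. The median of the 48 h minus 24 h difference was -0.05, beside -0.08 for all genes tested, with 23 members lower and 14 higher at 48 h. No member passed adjustment (0 of 37; 0% of all genes), and at an unadjusted p under 0.05 there were 2 lower (9.24% of all genes) and 0 higher (4.38% of all genes), and the methods' t-test had 2 and 1. The 2 were Rfc5, which was lower by a further -0.41 (95% interval from -0.73 to -0.08, adjusted p = 0.277, limma), and Prim1 by -0.56 (from -1.03 to -0.10, adjusted p = 0.288, limma).

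Other genes of the same pathways were lower as well. Among 46 tested genes of the replisome, licensing and checkpoints outside the 39, the median was -0.38 at 24 h and -0.53 at 48 h, with 11 and 17 lower and 1 higher at each time by adjusted p (5.99% and 7.38% of all genes were lower). Pold2, the accessory subunit of the polymerase of Pold1, changed by -1.13 and -1.40 (adjusted p = 0.0242 and 0.0146, limma) and Brca2, which protects stalled forks, by -1.14 and -0.94 (adjusted p = 0.0132 and 0.0228). Orc2, an origin recognition subunit, and Dscc1, of an alternative clamp loader, also passed at both times, with -0.76 and -0.96 for Orc2 and -0.64 and -0.91 for Dscc1. The 1 higher gene was Pold4, named after its values were seen. Several central genes did not pass: Orc1 was at -0.22 and -0.33, Cdc45 at -0.04 and -0.32, Top2a at -0.21 and -0.56, and Dnmt1 at -0.30 and -0.48. Cdc7, the kinase that activates the helicase, had the largest fitted values of this list, -1.27 and -1.77, with a SE of 0.74 because its unstimulated arrays differed (-2.18 and 0.15).

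Of 39 other nucleotide genes tested, 13 were lower at 24 h and 17 at 48 h (33.3% and 43.6%, beside 5.99% and 7.38% of all genes), with medians of -0.48 and -0.52. At each time 3 were higher (7.69%), a share near that of all genes (8.02% and 6.58%). Ctps and Cad, of pyrimidine synthesis, changed by -0.89 and -0.72 at 24 h and by -0.97 and -0.88 at 48 h. The 3 higher genes were Upp1, Pnp and, named after its values were seen, Tk2. Upp1, the uridine phosphorylase that breaks down uridine, rose from 0.49 and 0.40 to 4.63 and 4.62 at 24 h and 4.05 and 4.28 at 48 h. This is a rise of 4.18 and 3.72 (adjusted p = 0.000845 and 0.000927, limma), far beyond the spread of the arrays. Pnp, the purine nucleoside phosphorylase, rose by 0.76 and 0.96. Rrm2b, the damage-induced subunit of ribonucleotide reductase, was at 0.78 (adjusted p = 0.0503) and 0.15. Samhd1, which destroys deoxynucleotides, lay on opposite sides of the unstimulated level at the 2 times. It was at 3.92 and 4.09 unstimulated, 3.22 and 3.44 at 24 h, and 4.27 and 4.56 at 48 h. It thus fell at 24 h, by 0.67 on the log2 scale (adjusted p = 0.0496, limma, not passing under 13 of 20 alternatives), and stood at 0.41 above the unstimulated level at 48 h (adjusted p = 0.156).

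The regulators of these genes were lower in part. Of 19 tested genes of the E2F and pocket protein families, 6 were lower at each time and 0 were higher (medians -0.23 and -0.30). Of all genes, 8.02% were higher at 24 h and 6.58% at 48 h. At an unadjusted p under 0.05 in limma 0 of the 19 were higher, and the share of all genes at that threshold is not reported here. The 6 at each time, not all the same genes, are 31.6% of the list, beside 5.99% and 7.38% of all genes lower. E2f7 changed by -0.66 and -0.92, Tfdp1, the dimer partner of E2F, by -0.77 at both times, E2f4 by -0.62 and -0.80, E2f6 by -0.62 and -0.65, and Mybl2 by -0.60 and -0.71, and all passed at both times. E2f1 passed at 24 h only (-0.54, adjusted p = 0.0457, limma, against -0.50, adjusted p = 0.0532, at 48 h). Foxm1, named after its values were seen, passed at 48 h only (-0.58, adjusted p = 0.0336, limma, against -0.42, adjusted p = 0.071, at 24 h). E2f2 and E2f3 did not pass, with -0.01 and 0.00 at 24 h and -0.24 and -0.12 at 48 h. The E2F family holds activators and repressors, and the effect of these changes on the members was not tested. Rb1, the retinoblastoma gene, was at 0.03 and -0.12. E2f5, E2f8, Rbl1 and Rbl2 did not pass either.

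Among the cyclin-dependent kinases and their regulators the largest change by far was that of an inhibitor. Cdkn1a, which encodes p21, an inhibitor of cyclin-CDK complexes and a binder of PCNA, was at -3.95 and -3.38 in unstimulated cells, 0.75 and 1.09 at 24 h, and -0.19 and -0.07 at 48 h. It rose by 4.59 (SE 0.23, adjusted p = 0.00145, limma) and 3.53 (SE 0.23, adjusted p = 0.0019, limma). Ccna2, cyclin A2, fell from 4.04 and 4.17 to 3.25 and 3.50 at 24 h and 3.13 and 2.99 at 48 h (adjusted p = 0.0287 and 0.0123, limma), and Cdk6, a G1 kinase, changed by -0.88 and -1.05. Cdk1 and Cdk2 did not pass, with -0.29 and -0.23 at 24 h and -0.55 and -0.34 at 48 h. In all, 3 of 18 tested were lower at 24 h and 6 at 48 h (16.7% and 33.3%, beside 5.99% and 7.38% of all genes). There were 2 and 1 higher, 11.1% and 5.56% beside 8.02% and 6.58% of all genes (Cdkn1a and, at 24 h, Cdkn2c, the latter named after its values were seen).

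Mitosis genes and replication-dependent histone genes, which mark later steps of the cycle and S phase itself, were set beside the members. The 23 mitosis genes had medians of -0.27 at 24 h and -0.55 at 48 h, with 2 and 11 lower. These are 8.7% and 47.8%, beside 5.99% and 7.38% of all genes, so that the share at 24 h was near that of all genes. Kif11, a spindle motor, changed by -0.63 and -0.90 and Cdc20, an activator of the anaphase-promoting complex, by -0.56 and -0.88. Mki67 was at -0.63 and -0.41 with a SE of 0.55. The 37 tested histone genes had medians of -0.45 and -0.67, with 4 and 11 lower (10.8% and 29.7%, beside the same shares of all genes), Hist1h1b changing by -1.06 and -1.18. Histone genes are near-identical copies, so their probes may share transcripts. The 8 receptor and reference genes had medians of -0.15 and -0.19. Their values ranged from -0.55 to 0.22 at 24 h and from -0.70 to 0.09 at 48 h.

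**Figure D5:**
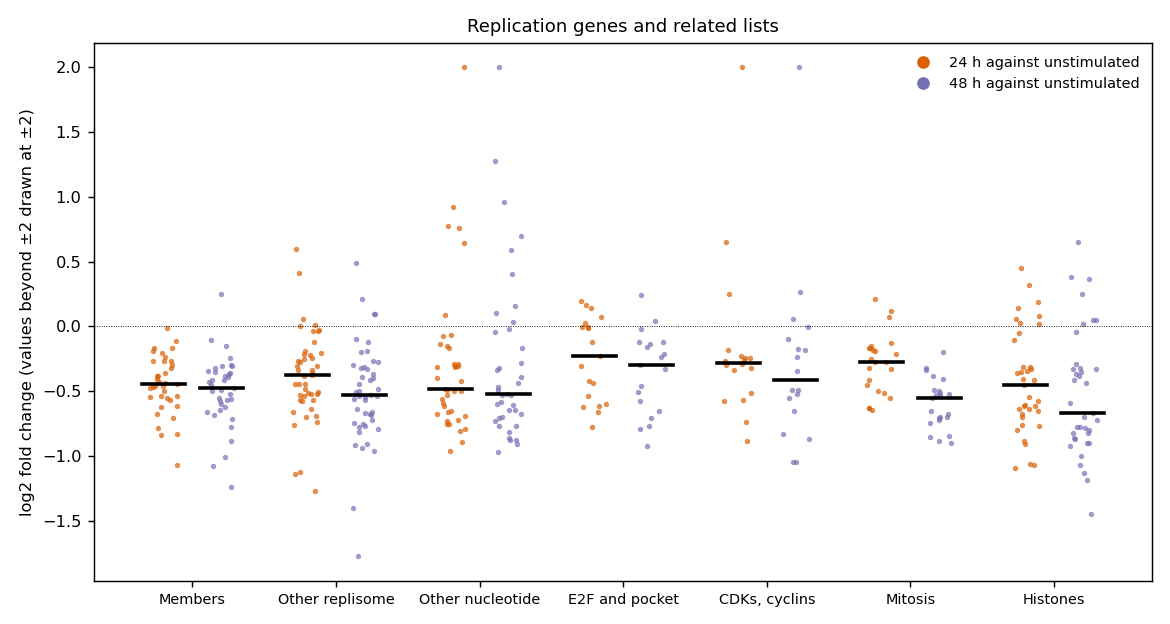
Log2 fold change against unstimulated cells (y axis, values beyond 2 in either direction drawn at 2) of every tested gene of the members and 6 related lists (x axis), at 24 h (orange) and 48 h (violet), with black bars at the medians. All medians are below 0, and the points drawn at 2 are Upp1 and Cdkn1a.

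The identity of the cells and the state of the arrays were checked against markers. Of the prostate epithelial markers, Cdh1 was not well above background on any array and Epcam on 1 of 6, whereas Krt5, Krt8, Krt14 and Trp63 were on all 6, as were all 8 fibroblast and mesenchymal markers. The summed level of the epithelial list was 3.99 on both unstimulated arrays, 3.62 to 3.80 at 24 h and 3.83 to 4.02 at 48 h. Most of this sum was Trp63, at 3.81 and 3.77 in unstimulated cells, and the median change of the 7 tested epithelial markers was 0.27 at 24 h and 0.15 at 48 h. Krt8 rose by 1.98 at 48 h (adjusted p = 0.0106, limma), and Krt18 was at 1.26 at 24 h (adjusted p = 0.0522). The summed level of the fibroblast list was 9.34 to 9.37, then 8.75 to 8.77, then 8.69 to 8.71. Its gene Dcn was higher and Col1a1, Col1a2, Col3a1 and Pdgfrb were lower by adjusted p in limma at both times. Of 10 macrophage and leukocyte markers on the arrays, 5 were well above background on all 6 arrays and 1, Lyz2, on none. Mrc1 and Cd14 rose at both times, while the list summed to 5.32 to 5.48, then 5.05 to 5.34, then 4.73 to 5.16. Most of that sum was Itgam, at 5.40 and 5.23 unstimulated and 4.92 and 4.40 at 48 h. The median change of the 6 tested markers was 0.63 at 24 h (from -0.43 to 4.27) and 0.16 at 48 h (from -0.65 to 3.56). The part of these shifts in the results was not tested. Between 58.7% and 72.0% of spots were well above background, with the highest shares on the first 24 h array (72.0%) and the second 48 h array (70.4%). The first 24 h array lay on another slide from the other 5. Without it, the median of the members at 24 h was -0.36, and fewer members passed adjustment in a fit with fewer degrees of freedom. These are bulk RNA measurements, in which fewer cells in S phase and less RNA per cell cannot be told apart. RNA came from 2 independent experiments per the methods. Each group has 2 arrays, and an exact permutation test of 2 against 2 cannot go below p = 0.333.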

How the data were processed

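N18-Fms cells were profiled on 6 single-color arrays. Per the submitters' notes the scans were quantified with Agilent Feature Extraction 11.0.1. The authors deposited, for each array, the background-subtracted spot intensity, the mean and local background intensity of each spot, and the software's other flags (well above background, saturated, outlier), none of it normalized across arrays. A further table deposited by the authors gives log2 values of 44569 probes, whose differences between arrays follow the log2 intensities (99.8% within 0.05 apart from a constant per array; column medians from -0.04 to 0.17), and how it was processed is not given in the sources used here.

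Spots flagged as outliers were left out, and each log2 intensity was expressed relative to log2 of that array's 75th percentile. The brightest probe stood for each gene, and the test took genes that 1 or more groups had well above background in both replicates (24648 of 36028). Groups, taken from the labels, were compared in 1 fit over the 6 arrays with limma 3.58.1 in R 4.3.3 (lmFit and eBayes, two-sided; files were read with the package data.table, version 1.17.8), with 3 residual and 2.39 prior degrees of freedom, and p-values were adjusted by Benjamini-Hochberg over all genes tested. Precision is limited by having 2 arrays a group. The procedure was tested on simulated data.

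The 39 members, the related lists and the tests were chosen with earlier results of these data known. Beyond the members, the genes named were a fixed set of regulators and, from each list, up to 4 of the genes called at either time with the largest mean change; exceptions are marked. Promoter sequences are RefSeq's, build GRCm38.p6; probe positions are on mm9 as the files give them, and exons were not annotated. The alternatives were 4 other normalizations and backgrounds, the authors' values, 4 choices of probe, filter and flag, 5 other fits or tests, and leaving out each array. For a comparison of 2 groups, leaving out an array of the remaining group gave the same result as fitting only those 2 groups. At 24 h the slide block gave the same result as leaving out the first 24 h array. Counts out of 20 alternatives are therefore not counts of separate checks. Replicate arrays correlated at 0.993 to 0.994 over the genes tested and none had identical values, so each counted as a sample. Some genes of the lists are not reported here.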

Additional observations from a re-analysis of the deposited data

Results flagged for a closer look

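Samhd1, a deoxynucleotide-destroying enzyme outside the 39 genes, had both 24 h arrays below both unstimulated arrays and both 48 h arrays above them. The decrease at 24 h (adjusted p = 0.0496, limma) did not pass under 13 of 20 alternatives, and the value of 0.41 at 48 h did not pass (adjusted p = 0.156) and passed under 1 of 20. Its level at 48 h exceeded that at 24 h by 1.08 on the log2 scale (adjusted p = 0.121, limma over all genes). Over the 20 alternatives this difference lay between 0.94 and 1.27 and passed adjustment in 3. No replication or nucleotide gene of the list showed such a pattern, and groups of 2 arrays are too small for a check of single arrays.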

How the results depend on the processing

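The direction of the members held throughout: between 35 and 38 had fitted values below 0 at 24 h and at 48 h under the 20 alternatives, and 0 were called higher. The number called did not. The share of all genes called lower under the same setting is given in brackets. At 24 h, where 11 were called lower (5.99%), there were 23 with median centring (15%) and 20 with normexp background and the 75th percentile (9.49%). There were 22 with an intensity trend (10.4%), 6 with only the 2 groups compared (3.49%) and 1 without a filter on dim probes (0.974%). At 48 h, where 16 were called (7.38%), these gave 10 (7.67%), 21 (11.9%), 26 (13.8%), 6 (3.91%) and 2 (0.583%) in the same order. The methods' t-test called 0 members after adjustment at both times, and 0% of all genes. At an unadjusted p under 0.05 and 2-fold, the count of 1 at 24 h became 4 with median centring and 0 with normexp and quantile normalization, and ranged from 1 to 1 when each array was left out. At 48 h it ranged from 2 to 3. Leaving out each array gave fewer calls than reported at both times, in fits with fewer degrees of freedom whichever array was left out. These counts cannot show dependence on a particular array. There were 35 to 37 values below 0 at each time, and medians from -0.54 to -0.36 and from -0.51 to -0.47. With the array left out, the lone array of a group is assumed to vary like the others.

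Median centring moved the median of all genes to -0.25 at 24 h and -0.14 at 48 h and that of the members to -0.73 and -0.57, so that their distance at 24 h was -0.48 as reported; calls over all genes became 15% lower and 4.86% higher at 24 h. It also turned the 48 h minus 24 h median of the members to 0.13, with 9 of 37 below 0, beside 0.10 for all genes. Leaving out an array moved that median between -0.11 and 0.01, with 17 to 28 members below 0 and 0 called.

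Signs changed for 3 members near 0. Rfc4 at 24 h became 0.047 with quantile normalization, 0.040 with normexp and quantile normalization and 0.16 with the slide as a block, and ranged from -0.19 to 0.16 when each array was left out (0.15 without the first unstimulated and 0.16 without the first 24 h array). At 48 h it became -0.33 with the mean of its probes and ranged from -0.11 (without the second 48 h array) to 0.61. Rrm2 at 24 h became 0.016 with normexp and quantile normalization and 0.035 with the slide as a block, and ranged from -0.26 to 0.035 (without the first 24 h array). Pcna at 48 h ranged from -0.23 to 0.023 (without the first 48 h array). The cause was not tested.

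The replicate numbers are shared across groups, but the deviations of same-numbered arrays correlated at 0.13, 0.09 and 0.20 and nothing says that they pair the samples. With a replicate block, 15 members were called lower at 24 h (6.32% of all genes) and 16 at 48 h (8.63% of all genes). The slide block takes the first 24 h array, alone on its slide, out of the comparison at 24 h. Probes near background limit the dim genes, of which Ccne2 is the one among the members.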
